A study of Triticum turgidum subsp. durum with 24 samples.

Results

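Among the 66,559 genes listed for the developing endosperm of durum wheat, 120 were chosen because their transcripts were most abundant in the middle of grain filling and less abundant both before and after it. A gene qualified when its median TPM over the 3 replicates of a timepoint was highest at 15 or 18 dpa (days post anthesis) and this highest median lay between 10 and 1000 TPM. Genes that the study lists as related to starch were set aside. This left 856 genes, which were ranked by the log2 ratio of the highest median to the higher of the 8 and 30 dpa medians, with 0.1 TPM added to each, and the first 120 were taken. TPM is a level of transcripts that allows for their length and is scaled so that every library has the same total. The genes were thus chosen by their TPM at 8, 15, 18 and 30 dpa, and their pattern over these timepoints is given below as a description, without a test.

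Kronos, a durum wheat variety with an A and a B subgenome, was grown in controlled environment chambers, and endosperm was dissected from its grains at 6, 8, 10, 13, 15, 18, 20 and 30 dpa. There was 1 genotype and no treatment, so the timepoints are the only groups, with 3 replicates from separate plants in each and 24 libraries in all. RNA of 6 endosperms was combined in each replicate up to 10 dpa, of 4 from 13 to 18 dpa and of 3 in the last timepoints, so a replicate averages several grains of a plant. Spikes of a single plant could serve several timepoints, so libraries of different timepoints may come from the same plant, and the tests below treat all of them as independent. The series was made to follow gene expression through endosperm development.

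The starchy endosperm of a cereal grain first forms as a tissue of dividing cells, then fills with starch and storage proteins, and finally dries and dies as the grain matures. Transcripts of storage proteins become very abundant during filling and take up a growing share of all transcripts. Because a grain can hold more or fewer endosperm cells of each kind, fewer cells of a type and less RNA per cell cannot be told apart in these pooled tissues. Neither the deposited tables nor the annotation used here pairs these 120 identifiers with a gene name or a product, so the genes are described by identifier, position and transcript length, and no role is given for them.

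The libraries held 56180606 to 115800050 estimated counts after rounding, the deepest being replicate 3 of 30 dpa, and the next had 78676665. GBSSI-A1 and GBSSI-A2, the granule-bound starch synthases of starchy endosperm, were present in every library at 39.4 to 834 TPM, while GBSSII-B1, a form known from the pericarp, lay at 0.208 to 14.5 TPM, with its highest mean at 10 dpa (11.7 ± 2.92 TPM, SD, n = 3) and its lowest at 30 dpa (0.344 ± 0.120). The part of remaining pericarp in the values of the 120 genes was not tested. The 100 most abundant transcripts held 15.6 to 21.4% of the TPM at 6 dpa and 70.6 to 75.6% at 30 dpa. Replicate 3 of 13 dpa stood apart from the other 2 libraries of its timepoint: its 100 most abundant transcripts held 37.9% of the TPM, against 44.3 and 48.2%, and its TMM factor, edgeR's correction for differing composition of the libraries, was 1.48, against 1.06 and 0.931.

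That library matters for the timing of these genes. In replicate 3 of 13 dpa, 85 of the 120 genes were above their own highest timepoint median, and 78 were above all 3 libraries of their own highest timepoint. Of the 24 libraries it was the one with the highest TPM for 76 of the genes, whereas 29 had their highest library at 15 or 18 dpa. When the mean replaced the median, 57 genes were highest at 15 or 18 dpa and 57 at 13 dpa. This shift was not limited to the 120 genes. Of the 11,854 genes with a highest median of 10 to 1000 TPM, 8.94% were highest at 13 dpa by the median and 16.9% by the mean. At 15 dpa these shares were 6.09% and 1.91%. For the counts in replicate 3 of 13 dpa, shares over all genes were not taken. Without replicate 1 of 13 dpa 62 genes were highest at 15 or 18 dpa by the median, and without replicate 2 of 13 dpa the number was 56. After scaling by TMM, 113 of the 120 were highest at 15 or 18 dpa, but then 49 of them at 18 dpa in place of 18. The day of the highest level was therefore not the same in each unit, and it changed when a single library was left out.

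**Figure D1:**
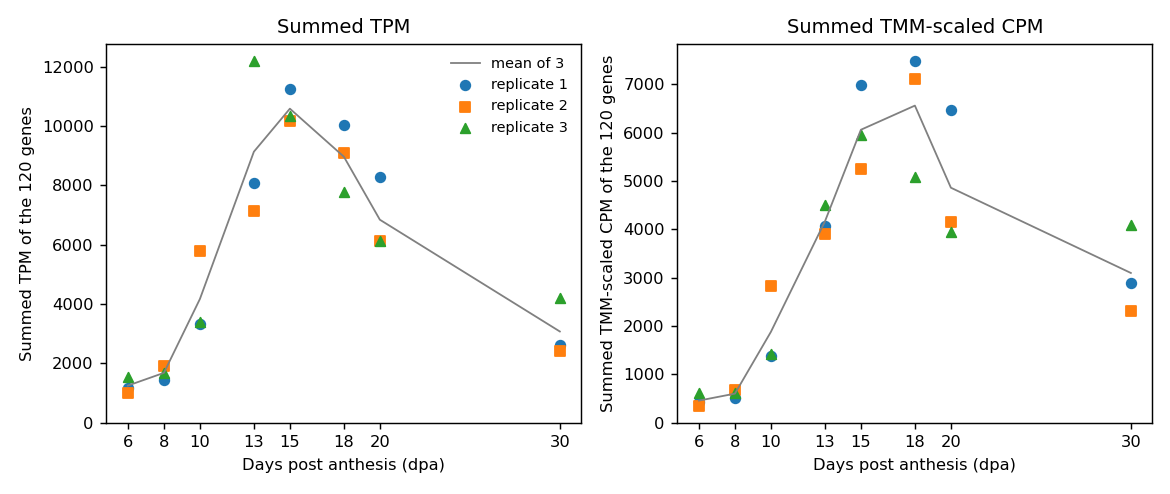
Summed level of the 120 genes in each of the 24 libraries (points, by replicate) and its mean at each timepoint (line, n = 3), as TPM on the left and as TMM-scaled CPM on the right, against days post anthesis. The mean was highest at 15 dpa in TPM and at 18 dpa in TMM-scaled CPM, and replicate 3 of 13 dpa was the highest library in TPM at 12211 but not on the scaled axis.

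Together the 120 genes took up little of the transcriptome. Their summed TPM was 1187, 1017 and 1559 in the 3 libraries of 6 dpa. The libraries of 8 dpa had 1447, 1927 and 1675, and those of 10 dpa 3320, 5789 and 3409. With 8084, 7124 and 12211 at 13 dpa the sum came near its highest values, which were 11251, 10168 and 10351 at 15 dpa. The libraries of 18 dpa had 10038, 9095 and 7780, those of 20 dpa 8281, 6140 and 6118, and those of 30 dpa 2623, 2404 and 4208. The 3 libraries of 15 dpa all lay above those of 6, 8, 10, 18, 20 and 30 dpa, and overlapped only with 13 dpa, through its replicate 3. The choice of genes, high at 15 or 18 dpa and lower at 8 and 30 dpa, favours this separation, so it is not read as a result. At 15 dpa the sum was 10590 ± 579 TPM (SD, n = 3), 1.06% of all TPM. On the TMM-scaled axis the mean was highest at 18 dpa, 6557 ± 1286 CPM, against 6058 ± 871 CPM at 15 dpa, a difference within the spread of the replicates.

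The highest timepoint median was at 15 dpa for 102 genes (85%) and at 18 dpa for 18. Among all 11,854 genes whose highest median lay between 10 and 1000 TPM, 6.09% were highest at 15 dpa and 1.19% at 18 dpa, so few genes of that abundance peaked in this interval in TPM. With TMM-scaled CPM the same shares were 8.05% and 10.4%. The highest medians of the 120 genes ran from 10.2 to 984 TPM with a median of 19.5 TPM. Most were low: 63 lay between 10 and 20 TPM, 38 between 20 and 100 TPM, and 19 above 100 TPM, and the 10 most abundant held 59.9% of the summed highest medians. The coefficient of variation over the 3 replicates at the highest timepoint had a median of 23.3% and ran from 2.15 to 76.0%.

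The levels climbed between 8 and 13 dpa and declined between 18 and 30 dpa. As a share of its own highest median, the median gene stood at 15.1% on 6 dpa and 20.2% on 8 dpa, before it came to 39.9% on 10 dpa and 77.0% on 13 dpa. It still stood at 76.2% on 18 dpa, then at 50.8% on 20 dpa and 26.9% on 30 dpa. On 10 dpa 41 genes had at least 50% of their highest median, and this number was 109 on 13 dpa, 115 on 18 dpa and 62 on 20 dpa. For 81 genes the 30 dpa median was the higher of the 2 flanking medians in the ranking. The 18 genes highest at 18 dpa had lower median shares on 10 and 13 dpa and a higher one on 20 dpa, 19.8, 58.8 and 72.0%, against 45.0, 78.6 and 49.3% for the 102 genes highest at 15 dpa. On 30 dpa the shares were close, 25.3 and 27.0%. These 2 groups were separated by their values at 15 and 18 dpa, and no test was made of the difference. The fall depended on the unit. In TMM-scaled CPM the median gene stood at 97.1% of its own highest median on 18 dpa, against 76.2% in TPM. On 20 and 30 dpa it stood at 60.9 and 42.1% in TMM-scaled CPM. After TMM scaling the median gene was 3.01 higher on the log2 scale at 15 and 18 dpa than at 8 dpa, and the lowest gene 1.51 higher. No upper end is given, as 4 genes had a median of 0 TPM at 8 dpa and the largest changes rest on levels near 0. Against 30 dpa the median gene was only 0.86 higher (-0.35 to 5.29), with 1 gene below 0 and 32 genes within 1.5-fold of their 30 dpa level.

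**Figure D2:**
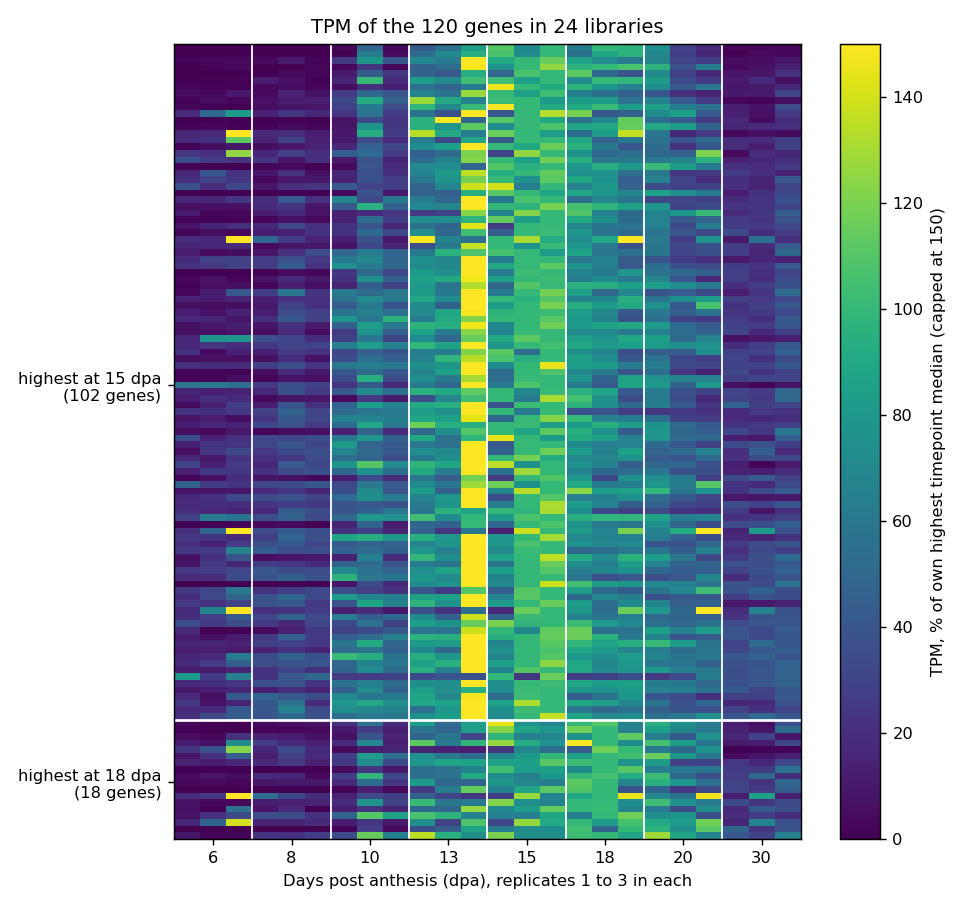
TPM of the 120 genes (rows, ordered by ranking within the 102 genes highest at 15 dpa and the 18 highest at 18 dpa) in 24 libraries (columns, replicates 1 to 3 of each timepoint), coloured as a percentage of the gene's own highest timepoint median and capped at 150%. Replicate 3 of 13 dpa is the brightest column, with 85 genes above 100%, and 9 genes also exceed 100% in replicate 3 of 6 dpa.

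The ranking measure was 5.13 for the first gene, 1.69 for the median gene and 1.26 for the last, with 33 genes over 2 and 9 over 3. The boundary was narrow. TRITD6Av1G161270, TRITD5Bv1G103240 and TRITD1Bv1G121510, the last taken, all had a measure of 1.26 with highest medians of 12, 14.4 and 18.9 TPM. The first genes left out, TRITD6Av1G108590, TRITD2Av1G066700 and TRITD2Av1G044270, had measures of 1.26, 1.26 and 1.25 with highest medians of 22, 28.8 and 41.6 TPM.

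The first 2 genes of the ranking were one on chromosome 4A and one on 4B with nearly the same transcript length and course. TRITD4Av1G178500 (4A:540666954-540668351, 1101 bp) was listed at 0 TPM in all libraries of 6 dpa and at 0, 0.151 and 0 TPM at 8 dpa. It then had 1.07, 25.1 and 1.76 TPM on 10 dpa and 21.7, 28 and 42.3 TPM on 13 dpa. In the peak interval it had 55.8, 35.4 and 50.7 TPM (15 dpa) and 31.5, 50.3 and 49.3 TPM (18 dpa). Afterwards 37.9, 15.0 and 9.23 TPM remained on 20 dpa, and 1.01, 1.35 and 1.41 TPM on 30 dpa. No library of 13, 15 or 18 dpa overlapped with one of 6, 8 or 30 dpa, a separation that the ranking favours. Replicate 2 of 10 dpa was over 10 times as high as the other libraries of its timepoint. TRITD4Bv1G025700 (4B:71471777-71473182, 1095 bp) was listed at 0 TPM in all 6 libraries of 6 and 8 dpa and had 0.543, 34.6 and 2.04 TPM on 10 dpa. It had 58.4, 39.8 and 54.4 TPM on 15 dpa and 0.632, 2.19 and 1.48 TPM on 30 dpa. Scaled to their own highest medians, the timepoint medians of the pair (0.1 TPM added) differed by at most 0.38 on the log2 scale. Whether they are homeologs was not tested, as no sequence was used here. Estimated counts of near-identical transcripts are less certain for each copy than for their sum.

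The other 18 genes ranked in the first 20 differed widely in level. TRITD5Av1G041610 (5A:101006360-101010440, 1194 bp) had a median of 23.3 TPM on 15 dpa, with 0.734, 0.872 and 1.2 TPM on 6, 8 and 30 dpa. TRITD6Av1G182950 (6A:521341327-521342169, 561 bp) had 0.0745, 0.391 and 0.716 TPM at 6 dpa, 14.4, 18.8 and 23.6 TPM at 15 dpa, and 0.729, 1.32 and 2.45 TPM at 30 dpa. TRITD4Av1G203780 (4A:592738116-592738748, 633 bp) was lowest of the first 10 at 30 dpa, with 0.301, 0.174 and 0.914 TPM against 13.7, 13.5 and 11 TPM at 15 dpa. TRITD2Bv1G195460, TRITD2Bv1G245070 and TRITD5Bv1G204460 had highest medians of 12.8, 40.5 and 19.3 TPM, all at 15 dpa.

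TRITD1Av1G168330, TRITD4Av1G054700, TRITD1Bv1G171980, TRITD3Av1G184410 and TRITD6Av1G033700 were highest at 18 dpa, with medians of 130, 33.2, 15.5, 15.4 and 11.8 TPM. TRITD4Av1G009090, TRITD0Uv1G071610, TRITD5Av1G021570 and TRITD2Av1G227900 were highest at 15 dpa, with medians of 18.1, 156, 38.2 and 45.0 TPM. TRITD2Av1G227900 was far higher in replicate 3 of 6 dpa (70.9 TPM) than in the other 2 (7.20 and 8.08 TPM), and this library exceeded all of its 15 and 18 dpa libraries.

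Genes with abundant transcripts gave most of the summed level. TRITD5Bv1G020380 (5B:55608873-55609367, 282 bp), the highest of all, had 6.74, 3.18 and 4.01 TPM on 6 dpa, then 109, 271 and 123 TPM on 10 dpa and 565, 484 and 821 TPM on 13 dpa. The libraries of 15 dpa had 1209, 861 and 776 TPM, and those of 18 dpa 1156, 984 and 643 TPM. On 20 dpa it had 836, 675 and 615 TPM, and on 30 dpa 137, 86.0 and 522 TPM. Its libraries of 13, 15, 18 and 20 dpa overlapped one another, and those of 6, 8 and 10 dpa lay below all of them, while replicate 3 of 30 dpa came within the range of 13 dpa. TRITD5Av1G019880 (5A:43377274-43377773), also 282 bp long, had a highest median of 554 TPM at 15 dpa, with 12.8, 3.85 and 1.06 TPM at 6 dpa and 168, 340 and 189 TPM at 10 dpa.

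TRITD1Bv1G008230 (1B:19318337-19320007, 435 bp) went from 13.7, 7.92 and 12.2 TPM at 6 dpa to 919, 670 and 805 TPM at 15 dpa and lay at 207, 180 and 312 TPM at 30 dpa. TRITD4Av1G254860 (4A:712434403-712440408, 471 bp) was listed at 0 TPM in all libraries of 6 dpa and lay at 396, 556 and 618 TPM at 18 dpa. TRITD2Bv1G243130 (2B:734089049-734124571, 339 bp), ranked 7, lay at 13.0, 7.44 and 7.46 TPM at 6 dpa, 760, 520 and 475 TPM at 15 dpa and 49.8, 57.6 and 88.3 TPM at 30 dpa. In these 3 genes no library at the highest timepoint overlapped with one of 6 or 30 dpa, a separation that the choice of genes favours.

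The other abundant genes kept more of their transcripts at the flanks. TRITD3Bv1G180710 was at 816 TPM by its 15 dpa median, but its 3 libraries there were 349, 831 and 816 TPM and replicate 3 of 13 dpa was at 1653 TPM. TRITD6Av1G212400 (588 TPM at 15 dpa) already stood at 282, 156 and 138 TPM at 6 dpa, and TRITD5Bv1G020930 (639 TPM at 15 dpa) at 229, 96.6 and 131 TPM. TRITD5Bv1G201860 and TRITD5Av1G166470 were highest at 18 dpa, at 762 and 490 TPM. The median of TRITD5Bv1G201860 at 30 dpa was still 226 TPM.

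**Figure D3:**
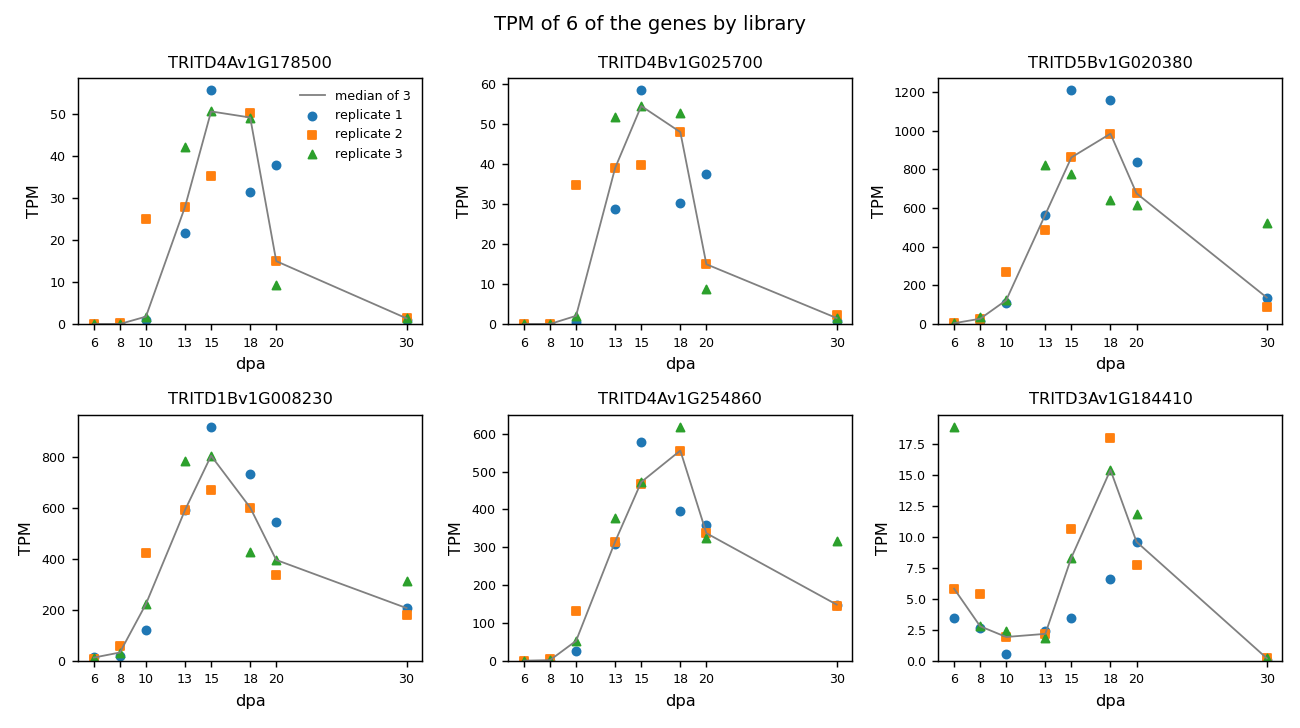
TPM of 6 of the genes against days post anthesis, with a point for each library (3 replicates per timepoint) and a line through the timepoint medians; each panel has its own axis from 0. TRITD4Av1G178500 and TRITD4Bv1G025700 are near 0 at 6, 8 and 30 dpa, and TRITD3Av1G184410 is high in replicate 3 of 6 dpa (18.9 TPM) and low at 10 and 13 dpa.

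The change between timepoints was tested in 3 comparisons that the ranking did not use: 10 against 6 dpa, 13 against 10 dpa, and 20 against 13 dpa. The medians of these timepoints entered the choice only in that they had to lie below the highest one. Choosing genes that were low at 8 dpa and high at 15 or 18 dpa still favours a rise before it, so the counts are read as a description of when the rise took place. Comparisons that share the 10 or the 13 dpa libraries are not independent of each other. A DEG (differentially expressed gene) had an FDR of at most 0.05 and a change of over 1.5-fold by edgeR, with p-values adjusted over all 44,240 genes tested. All 120 genes were among these.

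Most of the genes had risen by 10 dpa. Between 6 and 10 dpa, 94 of the 120 (78.3%) rose, against 17.6% of all genes tested, and 6 (5%) fell, against 14.6%. The median log2 fold change of the 120 was 2.12 and that of all genes tested 0. Of the 20 ranked highest 15 rose and 1 fell, and of the 10 most abundant 9 rose and 0 fell. In 86 of the genes that rose the 3 libraries of 10 dpa lay above all 3 of 6 dpa, as they did in 14.4% of all genes tested.

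The 3 with the largest change had 0 counts in every library of 6 dpa, so only a lower bound can be given, taken against a floor of 3 counts per library. TRITD4Av1G254860 was 25.4, 131 and 52.4 TPM at 10 dpa, at least 941-fold higher. TRITD4Bv1G025700 was at least 615-fold higher, although its mean at 10 dpa rested largely on replicate 2, without which the bound was 62.3-fold. TRITD0Uv1G071610 (507 bp, unplaced) was 12, 54.0 and 37.3 TPM at 10 dpa, at least 531-fold higher. TRITD4Av1G178500 was the fourth such gene, at least 466-fold higher, or 70.3-fold without replicate 2 of 10 dpa. Without that library the bounds of TRITD4Av1G254860 and TRITD0Uv1G071610 were 495-fold and 363-fold. With these 4 genes at their bounds the median of the 120 stayed at 2.12.

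TRITD1Bv1G008230 rose from 11.3 to 255 TPM in the mean (log2 fold change 4.78, SE 0.53, adjusted p = 1.27e-06), and its 3 libraries of 10 dpa lay above those of 6 dpa. TRITD5Bv1G020380 rose from 4.65 to 168 TPM (log2 5.62, SE 0.66, adjusted p = 2.4e-06), again without overlap. Both adjusted p-values are from edgeR.

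The 6 genes that fell were all higher in replicate 3 of 6 dpa than in the other libraries of that timepoint. TRITD3Av1G184410 (3A:512190794-512193066, 1233 bp) lay at 3.46, 5.83 and 18.9 TPM at 6 dpa and at 0.572, 1.92 and 2.40 TPM at 10 dpa, without overlap (log2 fold change -2.32, SE 0.53, adjusted p = 0.00195 by edgeR). TRITD4Av1G054720 lay at 3.24, 3.08 and 70.5 TPM at 6 dpa, TRITD7Av1G103660 at 2.15, 2.89 and 48.1 TPM, and TRITD6Av1G026380 at 8.08, 19.5 and 97.4 TPM. TRITD2Av1G022980 lay at 1.76, 5.0 and 14.5 TPM and TRITD2Bv1G256480 at 2.74, 9.89 and 22.5 TPM. In all 6 genes replicate 3 of 6 dpa was the highest of the 24 libraries, and without it 1 of the 120 genes fell. Replicate 1 of 15 dpa was low in several of them: TRITD6Av1G026380 lay at 5.49, 55.5 and 40.2 TPM there and TRITD2Bv1G256480 at 2.49, 17 and 14.6 TPM. Altogether 9 of the 120 genes were highest in replicate 3 of 6 dpa, and 17 had a 6 dpa median above those of both 8 and 10 dpa. The same counts were not taken over all genes. Of the 11,854 genes with a highest median of 10 to 1000 TPM, 34.8% had it at 6 dpa, so a high level there is not particular to these genes. Of the 6 genes that fell, the rule for naming genes takes in TRITD3Av1G184410 and, through a neighbour pair, TRITD4Av1G054720. The others were picked once their values were known.

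Between 10 and 13 dpa 46 of the 120 (38.3%) rose, against 4.9% of all genes tested, and 0 fell by edgeR, against 4.21%. All 120 log2 fold changes were above 0, with a median of 1.09, against 0.01 for all genes tested. The choice of genes favours this direction, and the share of all genes above 0 was not taken. At an unadjusted p under 0.05, 93 of the 120 were higher and 0 lower, against 14 and 13.3% of all genes tested. DESeq2 called 66 rises and 0 falls, against 7.24 and 5.88% of all genes. The count of rises depended on single libraries. It was 4 without replicate 3 of 10 dpa, 6 without replicate 1 of 10 dpa, 6 without replicate 3 of 13 dpa and 71 without replicate 2 of 10 dpa. Replicate 2 of 10 dpa had higher TPM than the other 2 libraries of its timepoint in 96 of the 120 genes, a count not taken over all genes. Its 100 most abundant transcripts held 35.2% of the TPM, against 24.7 and 28.4% in replicates 1 and 3. With only the 6 libraries compared in the model the number of rises was 1. The median log2 fold change kept its direction and lay between 0.93 and 1.43 over the 24 libraries left out in turn.

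TRITD4Av1G233450 (4A:652834837-652835367, 312 bp) lay at 1.3, 11.3 and 3.39 TPM at 10 dpa and at 23.3, 57.8 and 105 TPM at 13 dpa. It rose by 3.57 on the log2 scale (SE 0.64, adjusted p = 0.00334 by edgeR), without overlap of the libraries. TRITD6Av1G182950 lay at 0.627, 4.37 and 0.352 TPM and then at 8.60, 9.98 and 27.8 TPM (log2 3.08, SE 0.70, adjusted p = 0.0115 by edgeR). TRITD6Bv1G006160 (6B:17771546-17773986, 942 bp) lay at 3.17, 12.5 and 6.12 TPM and then at 26.6, 28.2 and 90.9 TPM (log2 2.77, SE 0.57, adjusted p = 0.00674 by edgeR). In the last 2 genes replicate 3 of 13 dpa was about 3 times as high as the other libraries of 13 dpa. All 3 genes missed the threshold when only the 6 libraries compared were in the model, with adjusted p from 0.0561 to 0.0877, and TRITD6Av1G182950 also without replicate 1 or 3 of 10 dpa or replicate 3 of 13 dpa.

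Of the 120 genes 36 rose in both intervals, against 2.57% of all genes tested. A rise between 6 and 10 dpa with no call afterwards was found for 58 (all genes 15.0%), and a rise between 10 and 13 dpa with no call before for 9 (all genes 2.06%). Of the 6 genes that fell between 6 and 10 dpa, 1 then rose (all genes 0.271%) and 5 had no call afterwards (all genes 12.3%). The remaining 11 had no call in either interval by edgeR, against 63.6% of all genes. Both intervals rest on the same libraries of 10 dpa. Genes without a call in an interval are not shown to be unchanged in it.

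**Figure D4:**
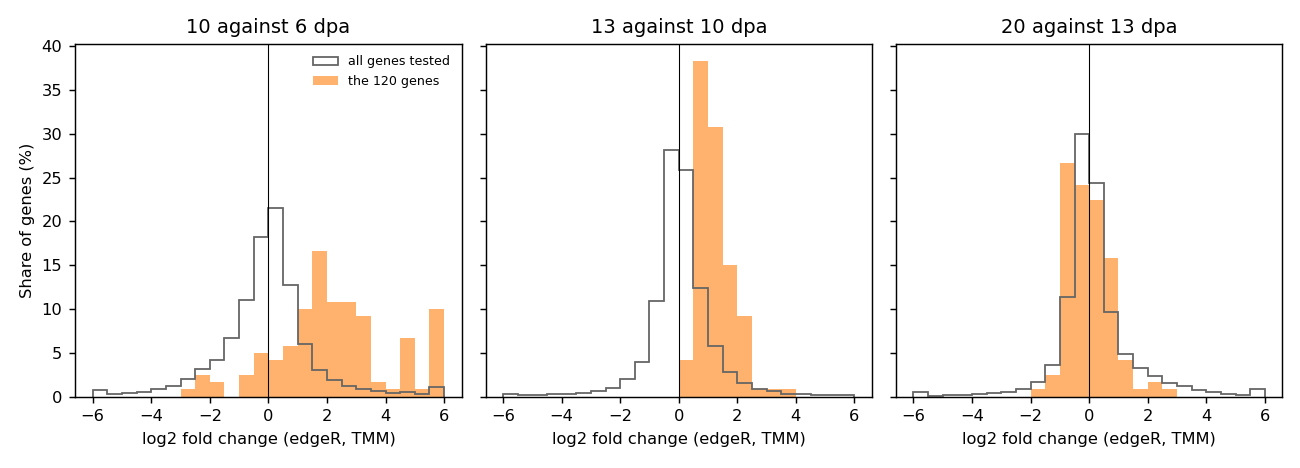
Distribution of the log2 fold change (edgeR, TMM-scaled) of the 120 genes (filled) and of all 44,240 genes tested (line), as a share of genes in each bin of 0.5, for 10 against 6, 13 against 10 and 20 against 13 dpa, with values beyond 6 drawn in the outermost bins. The median of the 120 was 2.12, 1.09 and -0.08, and all 120 lay above 0 between 10 and 13 dpa. The choice of genes favours that direction.

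Across the peak, from 13 to 20 dpa, few genes were called. Of the 120, 3 (2.5%) rose, against 6.82% of all genes tested, and 3 (2.5%) fell, against 4.37%. The median log2 fold change was -0.08, and 55 genes were above 0 and 65 below. Genes without a call are not shown to be unchanged. Replicate 1 of 20 dpa had the highest TPM of its timepoint in 89 of the 120 genes, a count not taken over all genes. Without that library 8 fell and the median was -0.29, and without replicate 3 of 13 dpa 1 fell and the median was 0.12. Without TMM scaling many more of the 120 were lower at 20 dpa, and so were many other genes. By limma on log2 TPM 44 fell (36.7%, against 35.2% of all genes tested) and 1 rose (all genes 3.63%). By edgeR without scaling beyond the library totals 42 fell (35%, against 32.0%) and 1 rose (all genes 3.58%). These shares of falls are near those of all genes. Under these 2 settings the median of the 120 was -0.73 and -0.75, while the median of all genes tested was -0.53 and -0.59.

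TRITD3Av1G184410 lay at 2.43, 2.17 and 1.80 TPM at 13 dpa and at 9.62, 7.75 and 11.9 TPM at 20 dpa, and rose by 2.84 on the log2 scale (SE 0.54, adjusted p = 0.00199 by edgeR). It was thus low at 10 and 13 dpa, when most of the others were rising, and its highest median was at 18 dpa, with 6.64, 18.0 and 15.4 TPM. TRITD2Bv1G256480 and TRITD4Av1G005100 also rose, by 2.04 and 1.18 on the log2 scale (adjusted p = 0.0283 and 0.0330 by edgeR), and their libraries of 13 and 20 dpa overlapped. TRITD4Av1G005100 is not among the genes that the rule names and was picked once its values were known.

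TRITD1Bv1G104510 (1B:311497315-311499736, 522 bp) fell from 9.13, 8.36 and 19.6 TPM at 13 dpa to 2.66, 2.73 and 2.27 TPM at 20 dpa, a log2 fold change of -1.54 (SE 0.29, adjusted p = 0.00196 by edgeR). It was already at 4.05, 4.24 and 2.97 TPM at 18 dpa. TRITD3Bv1G133770 (3B:417752978-417758846, 1842 bp) fell from 18.3, 16.9 and 47.7 TPM to 9.56, 6.37 and 5.17 TPM (log2 -1.27, SE 0.30, adjusted p = 0.00983 by edgeR). TRITD7Av1G170890 (7A:463444807-463453408, 795 bp) fell from 8.70, 8.69 and 23 TPM to 3.72, 4.28 and 4.22 TPM (log2 -1.01, SE 0.26, adjusted p = 0.0145 by edgeR). In all 3 the libraries of the 2 timepoints did not overlap. Without replicate 3 of 13 dpa TRITD3Bv1G133770 and TRITD7Av1G170890 were at -0.77 and -0.57 with adjusted p = 0.0657 and 0.10 by edgeR, and only TRITD1Bv1G104510 of the 120 genes fell.

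The ranking did not use position or length. Canonical transcripts of the 120 genes were short, with a median of 495 bp (198 to 2124 bp) and 49 (40.8%) under 400 bp. The 856 genes they were taken from had a median of 570 bp with 32.1% under 400 bp, the 11,854 genes with a highest median of 10 to 1000 TPM had 879 bp and 15.5%, and all genes listed had 1056 bp and 12.1%. Short transcripts were thus already common among the genes highest at 15 or 18 dpa. TPM divides by transcript length, and the part of length in passing the limit of 10 TPM was not tested.

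**Figure D5:**
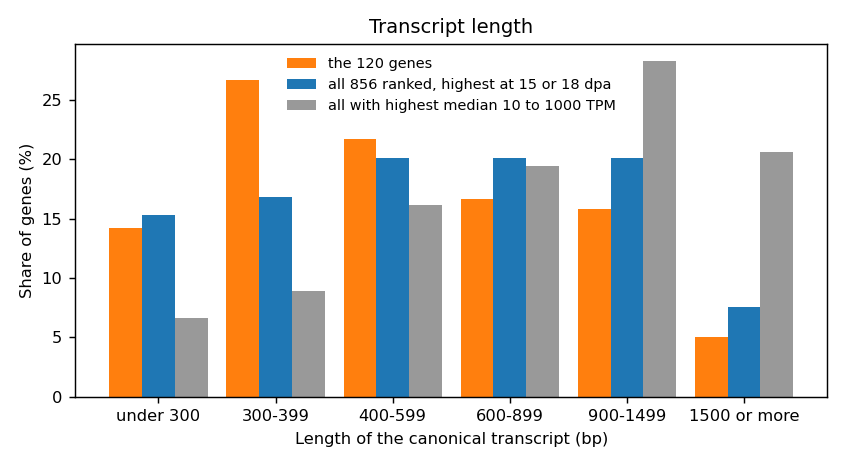
Length of the canonical transcript, as a share of the genes of each group in 6 classes, for the 120 genes, the 856 genes they were ranked from and the 11,854 genes with a highest median of 10 to 1000 TPM. Of the 120, 40.8% are under 400 bp, against 32.1% and 15.5%, and 5% are 1500 bp or more.

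Of the 120 genes 65 lay on A chromosomes, 53 on B chromosomes and 2 on unplaced sequence. Chromosome 2B carried 16 of them (13.3%, against 7.75% of the 11,854 genes with a highest median of 10 to 1000 TPM) and 4A carried 13 (10.8%, against 6.88%). In the other direction 1A carried 3 (2.5%, against 6.61%) and 3B carried 5 (4.17%, against 7.52%). Within 500 kb of each other lay 7 pairs of the 120 genes, which took in 14 of them. The genes directly next to one of the 120 numbered 232, of which 55 had a highest median of 10 to 1000 TPM, and 9 of these (16.4%) were highest at 15 or 18 dpa, against 7.28% of the 11,854. The 11,854 include the 120 genes themselves, which the rule placed at 15 or 18 dpa, and the 232 do not. No test was made of these shares.

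The pair with the highest summed level was TRITD4Av1G233360 (4A:652691631-652718583) and TRITD4Av1G233450, each with a transcript of 312 bp and 116 kb apart. TRITD4Av1G233360 lay at 20.8, 23.3 and 24.1 TPM at 6 dpa, 378, 332 and 352 TPM at 15 dpa and 107, 71.8 and 121 TPM at 30 dpa. TRITD4Av1G233450 was at 0, 0.0896 and 0 TPM at 6 dpa and had its highest median, 91.6 TPM, at 18 dpa. Of the 3 annotated genes between them, TRITD4Av1G233370 and TRITD4Av1G233380 also had transcripts of 312 bp and highest medians of 178 TPM at 15 dpa and 107 TPM at 13 dpa. TRITD4Av1G233390, of 333 bp, reached 4.12 TPM at 15 dpa. These 5 neighbours were thus all highest between 13 and 18 dpa, and how far they share sequence, and so reads, was not tested.

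TRITD2Av1G280500 (2A:745502969-745503226, 258 bp) and TRITD2Av1G280560 (2A:745648752-745649030, 279 bp) lay 146 kb apart and were both highest at 15 dpa, with 92.5, 81.1 and 104 TPM and with 267, 273 and 279 TPM. Of the 3 genes between them, TRITD2Av1G280520, of 273 bp, and TRITD2Av1G280510 were also highest at 15 dpa, at 51.7 and 1.67 TPM, and TRITD2Av1G280530 was highest at 6 dpa, at 0.765 TPM. On 2B, TRITD2Bv1G245840 and TRITD2Bv1G245860 were highest at 15 dpa at 29.7 and 16.9 TPM, and so was the gene between them, TRITD2Bv1G245850, at 52.6 TPM.

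The other neighbour pairs had lower levels. TRITD4Av1G054700 and TRITD4Av1G054720 (765 and 780 bp) were highest at 18 and 15 dpa, at 33.2 and 17.8 TPM. TRITD2Bv1G219780 and TRITD2Bv1G219870 (291 bp each), with highest medians of 17 and 14.4 TPM, had 4 genes between them. Of these TRITD2Bv1G219790, TRITD2Bv1G219800 and TRITD2Bv1G219810 were highest at 6 dpa, at 3.47, 3.03 and 1.42 TPM, and the other at 13 dpa. TRITD5Av1G158770 and TRITD5Av1G158870 reached 13.8 and 16.3 TPM. Neighbours of one of the 120 genes therefore did not always follow the same course.

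Of the 133 genes that the study lists as related to starch, 7 were highest at 15 or 18 dpa with a median of 10 to 1000 TPM, and 1 would have ranked within the 120, at place 109. This was LDA-B1 (TRITD7Bv1G013060), which encodes a limit dextrinase, an enzyme that cuts the branch points of starch. It had 0.235, 0.298 and 0.465 TPM on 6 dpa, then 3.25, 22.3 and 10.7 TPM on 10 dpa and 27.1, 22 and 27.0 TPM on 13 dpa. The libraries of 15 dpa had 28.9, 28.1 and 32.4 TPM and those of 18 dpa 31.5, 31.7 and 27.1 TPM. On 20 dpa it had 32.7, 22.4 and 20.1 TPM, and on 30 dpa 12.7, 12.3 and 20.4 TPM. Its libraries of 15 dpa lay above all 3 of 13 dpa, and those of 15, 18 and 20 dpa overlapped. Its replicate 3 of 13 dpa lay within the range of the other 2 libraries of that timepoint. LDA-A1 (TRITD7Av1G039520), also a limit dextrinase gene, was more abundant and fell less. Its median was 50.4 TPM at 18 dpa, where it was highest, and 30.9 TPM at 30 dpa, and it would have ranked at place 391.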

How the data were processed

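Endosperm RNA of 24 libraries (8 timepoints, 3 replicates each) was sequenced as 150 bp pairs from poly-A selected libraries. The authors pseudoaligned the reads with kallisto (0.46.1 in the submitters' processing notes) to the canonical transcripts of the Svevo v1 transcriptome and deposited estimated counts, which carry no scaling between libraries, and TPM from the same runs, which are scaled by effective length and to a fixed total. kallisto divides reads shared by similar transcripts between them, and TPM of a library are relative to its other transcripts. All columns mapped to a sample, and columns of no sample numbered 0.

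Estimated counts were rounded and tested with edgeR 4.0.16 in R 4.3.3 (TMM, quasi-likelihood F test, timepoint as factor, all libraries in 1 model that shares the spread), for the 44,240 genes that reached 10 counts in 3 or more libraries. A DEG had a Benjamini-Hochberg FDR of at most 0.05 and an absolute log2 fold change over 0.585. Depth was 56180606 to 115800050 rounded counts, and a gene at 0 counts in a library may have had up to 3. Bounds from this floor cover counting error only. The replicates of a timepoint came from separate plants, but libraries of different timepoints may share a plant, which the model does not take into account. Medians, counts and figures were made with Python 3.11.15, pandas 2.3.3, numpy 2.4.6 and matplotlib 3.10.9. The calculations were tested on simulated data.

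The genes, lists and tests were chosen with earlier results of these data known. Genes named were the 20 ranked highest, the 10 with the highest median, the 3 on each side of the boundary, for each comparison up to 3 that rose and 3 that fell with the largest change among DEGs without overlap of replicates, up to 6 pairs that are neighbours, and starch-related genes that would have ranked within the 120. Homeolog partners, product names and sequences were not analysed here. Positions are those of the Svevo.v1 annotation in RefSeq, which matched 63,993 of the 66,559 identifiers and 118 of the 120. Alternatives were DESeq2 1.42.0, edgeR with DESeq2 size factors or with library totals alone, omission of the 100 most abundant transcripts, other filters and thresholds, limma 3.58.1 on log2 of TPM with 0.1 added, only the libraries compared, the replicate number as a block, and each library left out.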

Additional observations from a re-analysis of the deposited data

How the results depend on the processing

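Single libraries and the unit set most limits. With means in place of medians 57 of the 120 genes were highest at 15 or 18 dpa and 55 would be chosen again. By TMM-scaled CPM 31 would be chosen again and by TPM rescaled without the 100 most abundant transcripts 25, while 113 and 115 of the 120 were still highest at 15 or 18 dpa. With limits of 5 to 1000 TPM the sets shared 66 genes, with 20 to 1000 TPM 57, with a pseudocount of 1 TPM 112 and with 6 in place of 8 dpa 92. Over the libraries left out in turn, 56 to 120 genes were highest at 15 or 18 dpa and 56 to 120 were chosen again. Of 621 values of the ranking measure of 23 named genes, 19 moved by more than the spread between replicates. Most libraries left out do not enter the measure of a given gene, which then cannot change, so this count does not measure stability. The fall of TRITD5Bv1G020380 to 1.58 without replicate 2 of 30 dpa was not counted as a move, as its replicates spread widely. Over the libraries left out the measure lay between 5.09 and 5.31 for TRITD4Av1G178500 but between 1.58 and 3.14 for TRITD5Bv1G020380, 2.06 and 3.35 for TRITD5Av1G019880, and 1.02 and 2.13 for TRITD6Av1G161270.

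Between 6 and 10 dpa the number that rose was 88 to 96 over the libraries left out, and 59 with the filter of 10 CPM, which leaves fewer genes to test. The number that fell was 1 to 6, with only the libraries compared 2. Between 10 and 13 dpa the number that rose was 4 to 71 over the libraries left out, 25 at a log2 threshold of 1.5, and 1 with only the libraries compared, a fit with fewer samples. The number that fell was 0 throughout. Between 13 and 20 dpa the number that rose was 1 to 5 over the libraries left out, 1 without scaling beyond library totals, 1 by limma and 5 with only the libraries compared. The number that fell was 1 to 8, with 42 and 44 under the first 2 of these settings, 1 with only the libraries compared and 1 at a log2 threshold of 1.5. In these 2 settings the median of all genes tested also moved, to -0.59 and -0.53, and the cause of the other differences was not tested. For the genes named for the largest change without overlap in each comparison, no log2 fold change changed sign, and 358 of 373 values kept their call. Other named genes were not part of this check.

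In the 3 comparisons tested, libraries with the same replicate number did not consistently deviate together (correlations of deviations from the timepoint means from -0.19 to 0.17), so numbers were not taken as pairs. Other pairs of timepoints were not checked. With the replicate block the numbers that rose and fell were 93 and 3 for 10 against 6 dpa, 38 and 0 for 13 against 10 dpa, and 3 and 3 for 20 against 13 dpa. The planned comparisons of homeolog partners were not run, as no pairing of the genes was at hand.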
